A study of Mus musculus with 28 samples.

Results

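Clock, Cry2 and Nr1d2 are 3 genes of the circadian clock, and their RNA was measured in the midbrain of mice that had received colon carcinoma cells or saline. They were taken by gene symbol, with 1 spot each per array, from arrays numbered 309 and above, out of 8726 genes named on the arrays and 4570 genes that passed the filters. They were picked because they lay low at 18 h in an earlier reading of the same data, so their 18 h values are given as a description, with no test. Tumour-injected mice were male BALB/c mice that received 1000000 CT-26.WT cells, a line of mouse colon carcinoma, in 300 µl of PBS under the skin at 8 weeks of age. PBS mice of the same strain, sex and age received 300 µl of PBS alone. Midbrain was taken at 18, 72 or 192 h after the injection. The labels give neither the hour of the day nor the number of animals behind a replicate. The series gives 28 arrays from 13 biological replicates, of which 21 arrays and 11 replicates are used here. These make 5 replicates for 18 h, 2 for 72 h and 4 for 192 h.

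In mammals the clock runs in most cells as a loop of transcription. CLOCK pairs with BMAL1 and switches on genes that carry E-box motifs, among them those for the period and cryptochrome proteins, which then block CLOCK and BMAL1. The nuclear receptors NR1D1 and NR1D2, also called REV-ERB alpha and beta, form a connected loop: they repress genes with ROR response elements, Bmal1 being the best known. CRY2 is 1 of the cryptochromes, and the level of many clock RNAs depends on the hour of the day.

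Both samples of a comparison lay on the same array, 1 labelled with Cy3 and the other with Cy5, so a spot gives the log2 ratio of tumour over PBS. Values below 0 stand for a lower level in tumour-injected mice than in PBS mice. Total RNA replicates (numbers 3, 4 and 5) were run in both dye orientations, and polyA RNA replicates (numbers 1 and 2) in 1 orientation each on the arrays used. Per array, 25.7% to 97.9% of spots gave a ratio, with a median of 69.0%. Array 397, in 18 h replicate 2, had the lowest share and is the only array of its design. The other polyA arrays used were registered under a different platform from the total RNA arrays. RNA type and platform therefore cannot be told apart. Array 447, in 72 h replicate 3, had a Spearman rho of at most 0.077 between its channels, against 0.658 on the best scan of array 397 and 0.695 to 0.983 on the others. The midbrain label was set against markers of dopamine neurons: 5 of 8 had a probe (Th, Ddc, Pitx3, Nr4a2 and En1), and all 5 had a signal on most arrays and passed the filters. Of 6 hypothalamic markers with a probe, 5 had a signal on most arrays and 4 passed. Of 4 cerebellar ones, all 4 had such a signal and 3 passed. Of all 8726 genes named, 4570 passed. These counts therefore do not tell midbrain from its neighbours.

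The 3 genes lie on the minus strand of the mouse genome, build GRCm38.p6. Clock spans chr5:76209868-76305603, Cry2 spans chr2:92403646-92434085 and Nr1d2 spans chr14:18204056-18239106. The RefSeq table of promoters gave 3 starts for Clock and 1 each for Cry2 and Nr1d2. The 250 bases before each start were searched on both strands for the E-box CACGTG, the related E′-box CACGTT, the D-box TTATGTAA, the half-site AGGTCA of the ROR response element and the cAMP response element TGACGTCA. The 2 stretches below lie before the annotated gene, the Cry2 one at chr2:92434086-92434319 and the Nr1d2 one at chr14:18239107-18239356, and are shown because each holds 1 of these motifs, in capitals, read along the gene.
Cry2: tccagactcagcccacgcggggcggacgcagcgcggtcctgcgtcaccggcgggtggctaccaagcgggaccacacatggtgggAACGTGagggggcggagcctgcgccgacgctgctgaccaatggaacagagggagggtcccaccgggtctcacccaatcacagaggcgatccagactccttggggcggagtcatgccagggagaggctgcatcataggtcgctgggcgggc
Nr1d2: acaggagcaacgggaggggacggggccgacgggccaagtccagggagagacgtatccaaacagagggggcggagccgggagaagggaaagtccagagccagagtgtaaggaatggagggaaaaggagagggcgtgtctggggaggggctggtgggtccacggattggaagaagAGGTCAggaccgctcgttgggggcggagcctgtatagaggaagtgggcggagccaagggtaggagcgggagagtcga
The capitals in Cry2 are the E′-box on the opposite strand, which begins 166 bases before the start, and those in Nr1d2 are the ROR half-site, 77 bases before it. A half-site on the opposite strand also lay 119 bases before the start of 1 Clock window, and no other motif matched in the members' windows. Of 32851 windows of the same length, 14.0% held the half-site, 3.85% the E′-box, 6.02% the E-box, 1.55% the cAMP element and 0.819% the D-box. These matches describe letters only. The 3 Clock windows lie inside the annotated gene and are not printed.

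Clock, which encodes the activator of the loop, lay below 0 in 4 of 5 replicates at 18 h, and near 0 later. Its log2 ratios at 18 h were 0.14, -0.88, -0.28, -0.48 and -0.34 in replicates 1 to 5, with a mean of -0.37 ± 0.37 (SD, n = 5). That mean corresponds to a level in tumour-injected mice of 0.775 of that in PBS mice. PolyA replicates 1 and 2 lay at opposite ends, and the 3 total RNA replicates lay between them. At 72 h the 2 replicates gave 0.17 and -0.01, with a mean of 0.08 and a 95% confidence interval of the fit of -0.29 to 0.44. At 192 h the 4 replicates gave -0.08, -0.07, -0.03 and 0.18, with a mean of 0.0016 ± 0.12 (SD, n = 4) and an interval of -0.26 to 0.26. Of its 192 h replicates 3 of 4 lay below 0; of all probes with 4 values there, 29.8% lay below 0 in all or all but 1. Neither later time passed the limma test, with adjusted p-values of 0.929 at 72 h and 1.00 at 192 h. The 192 h value minus the 72 h value was -0.08 (SE 0.20, limma adjusted p = 0.968). Without array 447 the fitted 72 h mean was -0.071 (SE 0.17) and the difference 0.073 (SE 0.21), both of the opposite sign. Replicate 3 then rested on array 445 alone, with tumour in Cy5, so the fit's term for dye orientation moved the mean. The replicate values themselves were then 0.11 and -0.01.

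Cry2, which encodes a repressor of CLOCK and BMAL1, had the lowest 18 h mean of the 3 genes and the widest spread with array 397 included. Without that array its mean was the closest to 0 of the 3, at -0.19, against -0.28 for Clock and -0.21 for Nr1d2. Its log2 ratios at 18 h were 0.05, -1.72, -0.42, -0.27 and 0.13 in replicates 1 to 5, with a mean of -0.44 ± 0.75 (SD, n = 5), a level of 0.735 of that in PBS mice. Replicate 2 stood far below the other 4, and replicates 1 and 5 lay above 0. At 72 h both replicates lay below 0, at -0.25 and -0.30, with a mean of -0.27 and an interval of -0.82 to 0.27. Over all probes tested, 22.7% lay below 0 in both 72 h replicates. At 192 h the replicates gave 0.43, 0.0034, 0.07 and -0.07, with a mean of 0.11 ± 0.22 (SD, n = 4) and an interval of -0.28 to 0.49. Neither mean passed the limma test, with adjusted p-values of 0.780 at 72 h and 1.00 at 192 h. The 192 h value minus the 72 h value was 0.38 (SE 0.31, interval -0.29 to 1.05) and did not pass the test, with a limma adjusted p of 0.836. Without array 447 the fitted 72 h mean was -0.45 (SE 0.27) and the difference 0.56 (SE 0.32). Their limma adjusted p-values were 0.994 and 1.00. Replicate 3 then rested on array 445 alone, at -0.095 with tumour in Cy5. The term for dye orientation thus moved the fitted mean below both replicate values, -0.095 and -0.30.

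Nr1d2, the nuclear receptor gene, was the only 1 of the 3 below 0 in every 18 h replicate. Its log2 ratios at 18 h were -0.25, -0.18, -0.34, -0.26 and -0.03 in replicates 1 to 5, with a mean of -0.21 ± 0.12 (SD, n = 5), a level of 0.864 of that in PBS mice. Of all probes with a value in the 5 replicates, 2.43% lay below 0 in every one, and 18.0% in all or all but 1; since the genes were picked from these values, nothing is read from that share. The 18 h means of Nr1d2 and Cry2 differed between scans, which also differed in the arrays that gave a ratio. That of Nr1d2 was 0.0081 (SE 0.12) from the first scan of each array and -0.28 (SE 0.10) from the last, and that of Cry2 -0.17 (SE 0.18) and -0.37 (SE 0.17). Cry2 at 72 h was -0.31 (SE 0.21) from the first scan and -0.030 (SE 0.26) from the last. For Cry2, 18 h replicates 1 and 3 had no value on the first scan. Array 397 gave a Cry2 value only on the last scan and array 456, at 72 h, only on the first. For Nr1d2 at 18 h, array 516 of replicate 3 and array 361 of replicate 2 had a value on the last scan but not on the first. Array 567 of replicate 5 had one on neither. Arrays with an Nr1d2 value on both scans at 18 h also differed between them. Array 524 moved most, from 0.081 on the first scan to -0.60 on the last. The others moved less, in both directions. The parts of scan and missing arrays in these means were not tested. At 72 h the replicates gave -0.10 and 0.05, with a mean of -0.03 and an interval of -0.30 to 0.25. At 192 h they gave -0.01, -0.10, 0.01 and 0.07, with a mean of -0.01 ± 0.07 (SD, n = 4) and an interval of -0.20 to 0.19. The values at 72 and 192 h overlapped and lay on both sides of 0, and neither mean passed the limma test, with adjusted p-values of 0.972 and 1.00. The 192 h value minus the 72 h value was 0.02 (SE 0.15, limma adjusted p = 0.994). Without array 447 the fitted values, in which the term for dye orientation again had a part, were -0.052 (SE 0.13) at 72 h and 0.043 (SE 0.16) for the difference.

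**Figure D1:**
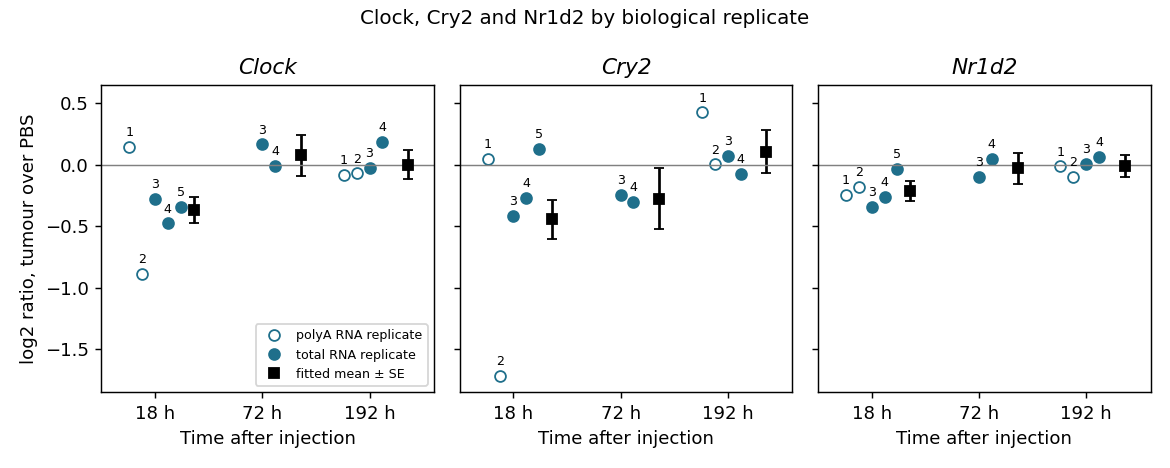
Log2 ratio of tumour over PBS for each biological replicate (circles, with the replicate number, open for polyA RNA and filled for total RNA) and the fitted mean with its standard error (squares), by time after injection. At 18 h Cry2 replicate 2 lies at -1.72 and the 5 Nr1d2 replicates lie between -0.34 and -0.03.

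Across the whole table of 4655 probes, none (0%) had a limma adjusted p below 0.05 at 18, 72 or 192 h or for 192 h minus 72 h. Without adjustment limma's p lay below 0.05 for 249 probes (5.35%) at 18 h, 409 (8.79%) at 72 h, 46 (0.988%) at 192 h and 278 (5.97%) for the difference. None of the 3 genes was among them at 72 h, at 192 h or for the difference. The median 95% interval reached 0.39 on each side at 72 h and 0.28 at 192 h, which limits the changes that could be seen. The intervals allowed a level in tumour-injected mice of 0.820 to 1.36 of that in PBS mice for Clock at 72 h, 0.566 to 1.21 for Cry2 and 0.811 to 1.19 for Nr1d2. At 192 h they allowed 0.838 to 1.20 for Clock, 0.823 to 1.41 for Cry2 and 0.868 to 1.14 for Nr1d2. The fit pools the spread over the times, so the Cry2 limits at the later times were narrower without array 397: its SE was then 0.15 at 72 h, 0.10 at 192 h and 0.18 for the difference, against 0.25, 0.18 and 0.31 with it. In such tissue samples, fewer cells of a type and less RNA per cell cannot be told apart.

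A single array gave the lowest Clock and Cry2 values. At 18 h array 397 gave -1.74 for Clock, with scans between -3.00 and -0.38, and -2.97 for Cry2, from the 1 scan of 3 that had a value in both channels. Nr1d2 had no value on that array. The 2 other arrays of the same replicate gave -0.59 and -0.32 for Clock, and the 1 other array with a Cry2 value gave -0.46. Without array 397, 18 h replicate 2 stood at -0.46 for both Clock and Cry2. The fitted 18 h mean was then -0.28 (SE 0.09) for Clock and -0.19 (SE 0.09) for Cry2, against -0.37 and -0.44 with it, and still -0.21 (SE 0.08) for Nr1d2.

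The 18 h values of Cry2 and Nr1d2 differed by dye orientation, and the medians of Clock hardly did. Of the 15 single values of the 3 genes at 18 h with the tumour sample in Cy3, 14 lay below 0, against 5 of 10 with the tumour sample in Cy5. The genes were picked for low 18 h values, and the shares over all probes by orientation are not given here. Whether these counts are particular to the 3 genes was therefore not tested. Cry2 averaged -1.01 over 4 arrays with tumour in Cy3 (-2.97, -0.46, -0.34 and -0.28) and -0.01 over 4 arrays with tumour in Cy5 (-0.42, -0.20, 0.05 and 0.54). Nr1d2 averaged -0.34 over 5 arrays with tumour in Cy3, all below 0, and 0.02 over 3 arrays with tumour in Cy5, 1 of them below 0. Clock differed less between orientations, with -0.56 over 6 arrays with tumour in Cy3, 5 of them below 0, and -0.36 over 3 arrays with tumour in Cy5, 2 of them below 0. The arrays of a replicate are not independent, so these means and medians carry no test. The part of the dyes in the 18 h values was not tested.

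Spots without a signal added to the imbalance. At 18 h, total RNA replicate 3 had a Clock value only with tumour in Cy3 and a Cry2 value only with tumour in Cy5, and replicate 4 had an Nr1d2 value only with tumour in Cy3. With the polyA replicates, 3 of 5 replicates at 18 h therefore rested on 1 orientation for each gene, and the dye term of the fit covers only the polyA ones. At 72 h no replicate did so, and at 192 h only the 2 polyA replicates did.

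At 72 h the orientation went the other way for Nr1d2, which averaged 0.20 with tumour in Cy3 (-0.03 and 0.42) and -0.25 with tumour in Cy5 (-0.18 and -0.32). Cry2 at 72 h averaged -0.13 with tumour in Cy3 and -0.42 with tumour in Cy5, where array 456 gave -0.75 from a single scan. At 192 h Nr1d2 gave 0.45 and -0.32 in the 2 orientations of replicate 4, and its replicate mean of 0.07 is the middle of these. In replicate 3 at 192 h the 2 orientations gave 0.0048 with tumour in Cy3 and 0.0089 with tumour in Cy5 for this gene.
Over the replicates run both ways, the 2 orientations had the same sign in 4 of 6 replicates for Clock, 4 of 6 for Cry2 and 2 of 6 for Nr1d2. The median gap between them was 0.14 for Clock, 0.22 for Cry2 and 0.45 for Nr1d2. Over all probes tested, 29.5% to 57.5% had the same sign in both orientations of a replicate. The median gap over these probes ran from 0.18 to 0.51 by replicate.

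**Figure D2:**
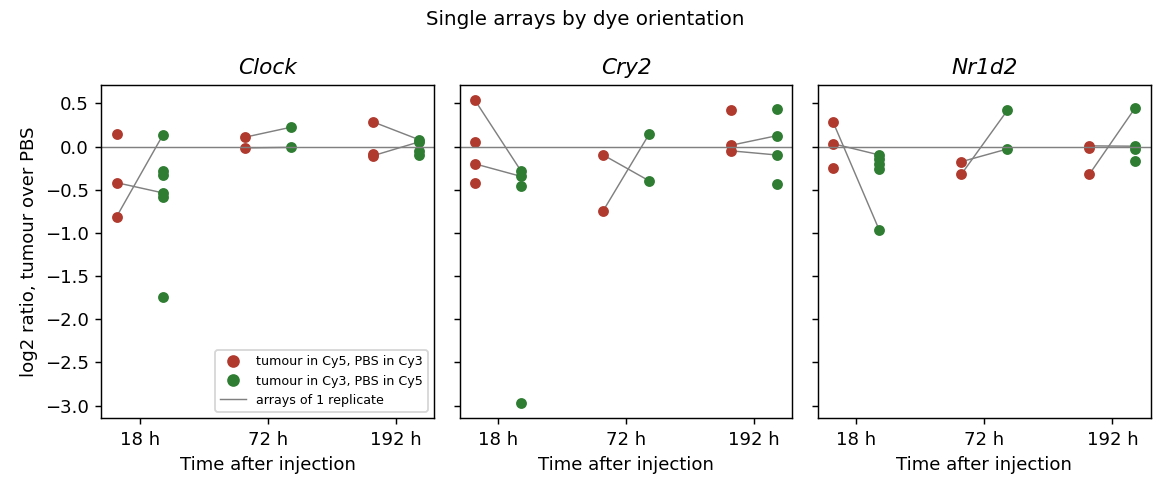
Log2 ratio of tumour over PBS on each array by time after injection, with the tumour sample in Cy5 (red, left) or in Cy3 (green, right), and grey lines joining arrays of the same replicate. At 18 h all 4 Cry2 and all 5 Nr1d2 values with tumour in Cy3 lie below 0, and 2 of 4 and 1 of 3 with tumour in Cy5 do.

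The brightness of the spots differed among the 3 genes. Mean log2 intensity over both channels was 18.5 for Clock, 17.4 for Cry2 and 18.6 for Nr1d2, and probes under 17.2 were left out as dim, so Cry2 passed narrowly. Clock had a signal in both channels on 20 of 21 arrays and 58 of 63 scans, Nr1d2 on 19 arrays and 51 scans, and Cry2 on 19 arrays and 45 scans. The tumour channel of Clock had a median log2 intensity of 18.6 (15.8 to 20.2) and the PBS channel 18.9 (16.6 to 20.3). For Cry2 the tumour channel had 17.4 (14.6 to 18.6) and the PBS channel 17.8 (14.7 to 19.1), and for Nr1d2 the tumour channel had 19.1 (15.02 to 20.9) and the PBS channel 19.0 (15.1 to 21.2). Brightness depends on the probe, so these levels are not set against each other between genes.

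Of a list of 50 clock genes, 25 had a probe and 15 passed the filters, 12 of them besides Clock, Cry2 and Nr1d2. Limma called none of these 12 at 18, 72 or 192 h. At an unadjusted p under 0.05 limma had 1 of them at 18 h, Csnk2a1, and 0 at the later times. The median log2 ratio of the 12 at 18, 72 and 192 h was 0.024, -0.0011 and -0.0054, beside -0.0010, 0.034 and -0.0019 over all probes tested. At 18 h, 8 of the 12 lay above 0 and 4 below, with fitted values from -0.26 to 0.13. Csnk2a1, which encodes a catalytic subunit of casein kinase 2, had -0.26 (SE 0.11) at 18 h and 0.17 (SE 0.11) at 192 h. Clock, Cry2 and Nr1d2 were chosen for low 18 h values, so the order of the 12 genes against them at that time is set by the choice.

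The output factors Dbp, Tef and Nfil3 encode bZIP proteins that act on D-boxes, DBP and TEF as activators and NFIL3 as a repressor, and Dbp is a direct target of CLOCK and BMAL1. Dbp had fitted log2 ratios of 0.01 (SE 0.08) at 18 h, -0.04 (SE 0.13) at 72 h and -0.08 (SE 0.09) at 192 h. Tef had 0.04, -0.15 and -0.04, and Nfil3 had 0.11, -0.14 and -0.15, at the same times. None of them passed the test at any time.
Among the enzymes that act on clock proteins, the casein kinases Csnk1d and Csnk1e, which phosphorylate the period proteins, both had 0.04 at 18 h. At 72 and 192 h Csnk1d had 0.20 (SE 0.16) and -0.05 (SE 0.12), and Csnk1e had 0.01 and -0.10. The kinase gene Gsk3b had -0.13, 0.02 and 0.09 at 18, 72 and 192 h, and the phosphatase genes Ppp1cb and Ppp5c had 0.13 and 0.01 at 18 h. None of these passed the test at any time.
Of the signals that act on the suprachiasmatic nucleus, the master clock in the hypothalamus, the peptide gene Vip had -0.11 (SE 0.12), -0.30 (SE 0.15) and 0.02 (SE 0.14). The peptide gene Adcyap1 had 0.12, -0.06 and 0.21, and its receptor gene Adcyap1r1 had -0.06, 0.08 and 0.01. None of these values passed the test.

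**Figure D3:**
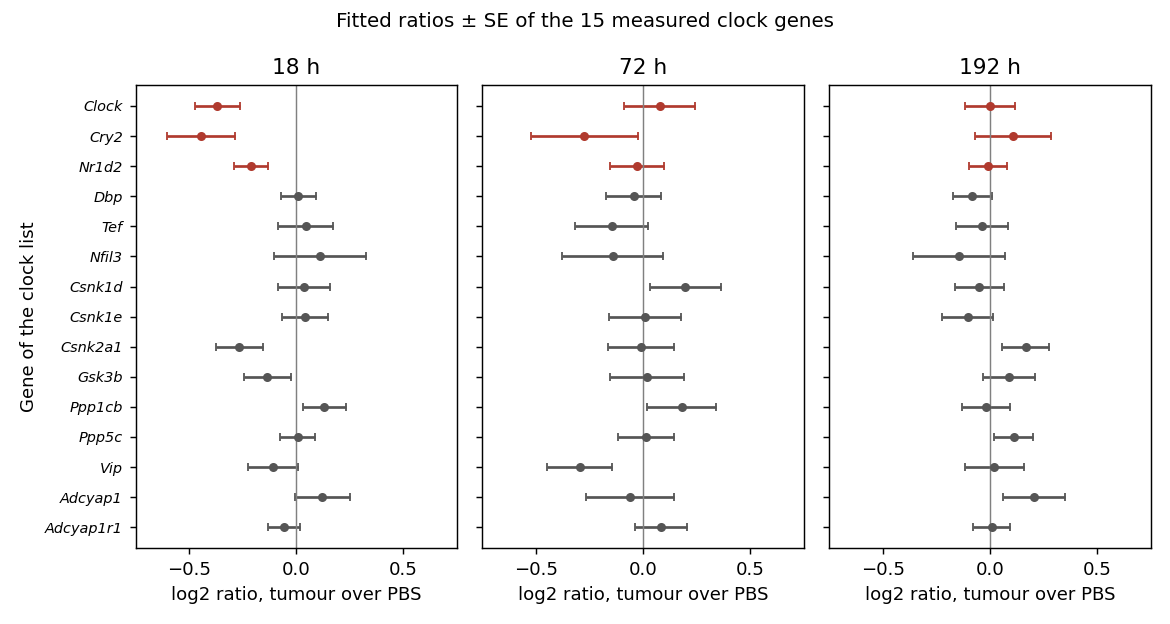
Fitted log2 ratio of tumour over PBS with its standard error for the 15 measured genes of the clock list, Clock, Cry2 and Nr1d2 in red, at 18, 72 and 192 h. At 18 h the other 12 genes lie between -0.26 and 0.13.

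Close relatives of Clock and Cry2 that have a probe did not pass the filters, so their values are given without a test. Per2, a period gene, had a median log2 ratio of 0.20 in the 4 replicates at 18 h with a value, from -0.11 to 0.69. Cry1, the other cryptochrome, had a median of 0.11 in 4 replicates, from -0.25 to 0.35. Npas2, whose product can take the place of CLOCK, had a median of 0.0010 in 4 replicates, from -0.65 to 0.13. Per3, another period gene, had 2 values at 18 h, -0.046 and -0.00099. These ranges lie on both sides of 0 except that of Per3. The other genes left out by the filters were Bhlhe40, Bhlhe41, Nampt, Ppargc1a, Prok2 and Avp, and the remaining 25 genes of the list, among them Arntl (the gene for BMAL1), Per1 and Nr1d1, are not analysed here.

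Markers of neighbouring tissue were read beside the 18 h values. Of 7 hypothalamic markers, 4 were measured, with fitted log2 ratios at 18 h from -0.39 for Oxt, the oxytocin gene, to 0.09 for Trh, and 3 of the 4 below 0. Of 5 cerebellar markers, 3 were measured, from -0.35 for Cbln3 to 0.05 for Cbln1. The 5 dopamine neuron markers lay between -0.38 for Ddc and 0.48 for Nr4a2, 3 above and 2 below 0. None of the 17 markers measured was called at any time. At an unadjusted p under 0.05 limma had Nr4a2 and Oxt at 18 h, Th, Pitx3 and the astrocyte marker S100b at 72 h, and Th at 192 h. Over all probes tested, 5.35% lay under it at 18 h, 8.79% at 72 h and 0.988% at 192 h. For endothelial and red blood cells no marker was measured, and for oligodendrocytes, microglia and choroid plexus 1 each. Whether the makeup of the dissected tissue had a part in the 18 h values was not tested.

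The pattern of each gene over the 11 replicates was compared with that of 2296 other probes by Pearson's r, as a description, since the replicates share arrays and dyes across genes. For Clock the most alike were Rheb (r = 0.88), Tle4 (r = 0.84) and Cdk2ap1 (r = 0.83). For Cry2 they were Dbndd1 (r = 0.91), Rgs12 (r = 0.91) and 1700128F08Rik (r = 0.89). For Nr1d2 they were Lrwd1 (r = 0.90), Rabggta (r = 0.89) and Eif4enif1 (r = 0.83). Clock and Cry2 had r = 0.72 with each other, and Nr1d2 had 0.40 with Clock and 0.34 with Cry2.
Without 18 h replicate 2, which holds array 397, Clock and Cry2 had a lower r with each other and with all the genes named for them. Clock and Cry2 then had r = 0.14 with each other. Rheb had 0.73, Tle4 0.57 and Cdk2ap1 0.64 with Clock. Dbndd1 had 0.58, Rgs12 0.70 and 1700128F08Rik 0.28 with Cry2. For Nr1d2 the values without that replicate were 0.96 for Lrwd1, 0.89 for Rabggta and 0.85 for Eif4enif1.

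**Figure D4:**
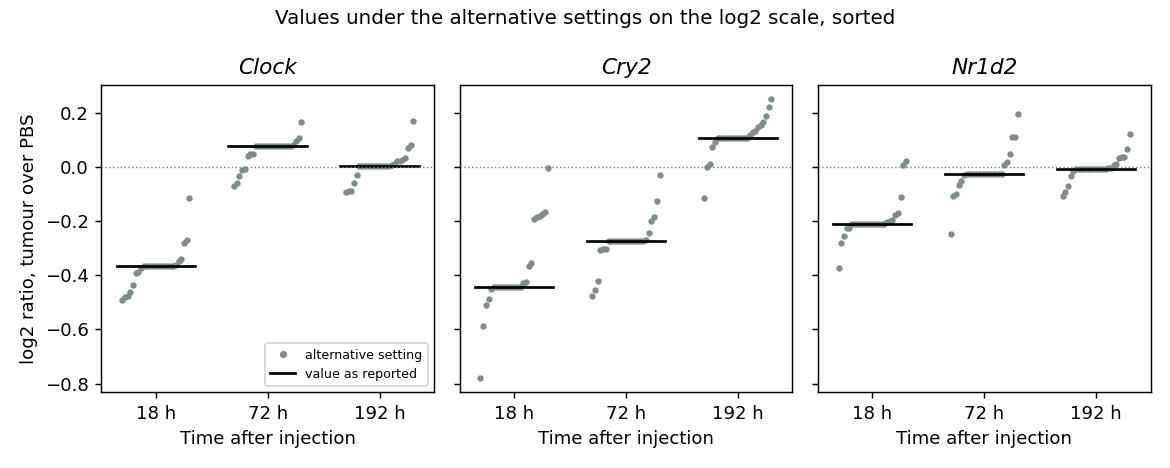
Log2 ratio of tumour over PBS of each gene under each alternative way of processing that gave log2 values (grey points, sorted from low to high) and as reported (black line), by time after injection. At 18 h the Clock and Cry2 values stay below 0 and range from -0.49 to -0.12 and from -0.78 to -0.01, while Nr1d2 ranges from -0.37 to 0.02.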

How the data were processed

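Per the file headers, the authors deposited spot intensity values of both channels, corrected for background, and the background itself, for several scans of each array. The authors' deposited series matrix holds log ratios of unstated base, treated as a score: its signs are tumour over PBS, its column medians run from -0.007 to 0.012, and it correlated with the scanner ratios at r = 0.580 to 0.875. Scanning software and normalization are not given in the sources used here. Probes were named from the platform's annotation: 8909 of 9008 accessions by gene number, 3 by accession and 85 by the listed symbol, while 11 with several symbols stayed unnamed. Sequences are from RefSeq.

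Analysis used limma 3.58.1 in R 4.3.3. The log2 ratios of the deposited intensities were loess-normalized scan by scan (span 0.3, 4 iterations), averaged over scans and spots, given the sign of tumour over PBS from the dyes per the labels, and averaged over the arrays of a replicate. Probes among the dimmest 33.3% were dropped, as were those with under 3 replicate values for 18 or 192 h or under 2 for 72 h. The model held time means plus a term for dye orientation (7 residual and 4.64 prior degrees of freedom), and p-values were adjusted by Benjamini-Hochberg over 4655 probes. SE and intervals pool the spread over the 3 times, SDs do not. Nothing says that replicates are separate animals, so p-values measure only the spread between these samples, and the number of arrays limits the precision. The 7 arrays numbered below 309 were used only in an alternative.

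The 3 genes and the lists were chosen with earlier results of these data known. Named genes are the 3 members, every measured gene of the clock list, the markers quoted, and the 3 genes most alike to each member. Alternatives are listed in the closing section.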

Additional observations from a re-analysis of the deposited data

Results flagged for a closer look

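Cry2 on arrays of 18 h with tumour in Cy3 held a value of -2.97, on array 397, far below the other 3 of that orientation, which lay between -0.46 and -0.28. Nr1d2 on arrays of 18 h with tumour in Cy3 held -0.97, in replicate 3, where the other 4 lay between -0.26 and -0.10; the array of the same replicate with exchanged dyes gave 0.28. Gsk3b at 18 h held 0.19 in 1 of 5 replicates, with the others between -0.29 and -0.16. In all, 46 groups were checked for a lone sample with Dixon's test, of which about 2.3 would be marked by chance and 3 were.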

How the results depend on the processing

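In none of the alternatives that gave a test did Clock, Cry2 or Nr1d2 pass at 72 h, at 192 h or for 192 h minus 72 h; their limma adjusted p ran from 0.393 to 1.00. Nearly all values that changed sign lie near 0, and the cause was not tested. At 18 h Clock and Cry2 stayed below 0 in all 27 alternatives. On the log2 scale they ran from -0.49 to -0.12, the end nearest 0 being without background subtraction, and from -0.78 to -0.0063, and Clock had -0.075 in the authors' matrix, whose log base is unknown. Nr1d2 lay below 0 in 25 of 27. Many of these settings left all 3 values at 18 h unchanged, so the counts do not measure their stability. They were leaving out array 447 or any replicate of 72 or 192 h, the replicate block, no dye term, no filter on dim probes and all 28 arrays. The 2 exceptions for Nr1d2 were the first scan alone (0.0081) and arrays with tumour in Cy5 (0.023); with tumour in Cy3 it was -0.37, here averaged over replicates. With tumour in Cy3 Nr1d2 had 0.20 at 72 h and 0.12 at 192 h, and Cry2 had -0.13 at 72 h and 0.14 for 192 h minus 72 h. With tumour in Cy5 Nr1d2 had -0.25 at 72 h and -0.11 at 192 h, and Cry2 had -0.42 at 72 h. Cry2 at 72 h also ran from -0.48 (SE 0.19, adjusted p = 0.393) with all 28 arrays, where 192 h minus 72 h was 0.58 (SE 0.26), to -0.030 with the last scan. The fits with no dye term, with no filter on dim probes and with the median of scans and spots turned no sign and called 0 probes at every time.

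At 72 h Clock turned to -0.060 with median centring, -0.0071 without background subtraction, -0.035 with all 28 arrays and -0.071 without array 447, and Nr1d2 to 0.11, 0.0079 and 0.020 with median centring, without background subtraction and in the authors' matrix, and 0.11 with the last scan. At 192 h Clock turned to -0.089 with median centring, -0.031 without background subtraction, -0.094 with the last scan and -0.030 in the authors' matrix. Nr1d2 at 192 h turned to 0.0065 with median centring, 0.011 with the last scan, 0.066 with all 28 arrays and 0.036 with total RNA replicates only, where Cry2 turned to -0.00082. For 192 h minus 72 h, Clock turned to 0.036 with all 28 arrays, 0.073 without array 447 and 0.0020 with total RNA replicates only, and Nr1d2 to -0.10 with median centring and without background subtraction, -0.098 with the last scan and -0.096 in the authors' matrix.

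Replicate numbers are shared between times. The numbers were not taken as pairs, because a ratio already compares tumour and PBS within an array. Deviations of same-numbered replicates correlated at -0.12 to 0.33 over 8 pairs, 5 of them above 0.1. Differently numbered replicates were not compared, so these correlations do not decide whether the numbers are pairs. With the number as a replicate block, Nr1d2 turned to 0.018 at 72 h and 0.036 at 192 h, Cry2 moved to 0.25 at 192 h, 3 probes were called at 72 h and 1 for 192 h minus 72 h.
Leaving out each replicate in turn gave ranges of fitted means at 18 h of -0.46 to -0.27 for Clock, -0.59 to -0.18 for Cry2 and -0.26 to -0.18 for Nr1d2. Without replicate 1 or 2 the orientations of a time no longer balanced, so the dye term moved its fitted mean, as without array 447 at 72 h. Cry2 at 192 h was 0.22 without replicate 1, above every remaining replicate, and -0.11 without replicate 2, below every remaining one. At 72 h the ranges were -0.012 to 0.17 for Clock, -0.30 to -0.25 for Cry2 and -0.10 to 0.049 for Nr1d2, and at 192 h -0.090 to 0.17, -0.11 to 0.22 and -0.034 to 0.033, in the same order of genes. For 192 h minus 72 h they were -0.17 to 0.093, 0.16 to 0.50 and -0.058 to 0.092. Calls over all probes then ran from 0 to 297 at 72 h, from 0 to 199 for 192 h minus 72 h, and stayed at 0 at 18 and 192 h; the highest counts came without 72 h replicate 4, when replicate 3, which holds array 447, stood alone and was assumed to vary like the other times. Elsewhere 72 h had 3 calls with median centring, 2 with total RNA replicates only, without background subtraction or with the last scan, and 1 with all 28 arrays or without array 397, and 192 h minus 72 h had 1 without background subtraction.

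Leaving out array 397, and fitting each array with its own dye and the replicate as a random effect, were chosen after seeing the data; the second gave 18 h values of -0.48 for Clock, -0.51 for Cry2 and -0.20 for Nr1d2.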
